A study of Homo sapiens with 4 samples.

Results

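The collagen genes of ES-2 cells are described here, before and after depletion of the YAP1-MAML2 (YM) fusion. The members are all genes of the deposited tables whose symbol reads COL, a type number, A and a chain number. The tables held 42 such genes among 19626. COL20A1 and COL23A1, which have symbols of the same form, were not analysed here. ES-2 is an established human ovarian cancer cell line, labelled as a clear cell carcinoma, in which part of YAP1 is joined to part of MAML2. Cells were transduced with pLKO.1 lentivirus carrying a nontargeting control shRNA (shCtl, n = 2) or 1 shRNA against MAML2 (shM2-3, labelled shMAML2, n = 2), and per the labels RNA was taken 96 h after the first infection. shM2-3 acts on a sequence that MAML2 and the fusion share, so its libraries are depleted of both, in 1 line and with 1 hairpin. The series' design text names the cultures as independent biological replicates, and RNA-seq libraries did not keep strand.

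Collagens are the main structural proteins of the extracellular matrix. Each molecule is built from 3 α chains that wind into a triple helix, and each chain has its own gene. Fibrillar collagens assemble into banded fibrils. Type IV forms the sheet-like network of basement membranes, and type VI forms beaded microfilaments around cells. The fibril-associated collagens with interrupted triple helices (FACIT) sit on the surface of fibrils. In ovarian tumours, collagen comes mostly from stromal fibroblasts, but carcinoma cells can also make it.

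Levels are given in RPKM, which corrects the reads of a gene for its length and for sequencing depth, so it allows genes of different length to be compared. Changes are log2 fold changes of shM2-3 over shCtl from edgeR's quasi-likelihood test on the estimated counts, with their standard error (SE). Adjusted p-values come from this test with Benjamini-Hochberg adjustment over the 12157 genes that exceeded 1 RPKM in any library, unless an alternative analysis is named beside them. Calls needed an adjusted p no higher than 0.05 together with a change of at least 2-fold. The libraries held between 20051083 and 23978660 estimated counts. MAML2 had 8.61 and 8.26 RPKM in shCtl and 3.11 and 2.998 in shM2-3, an adjusted p of 5.18e-10. The fusion carries part of MAML2, so this gene-level value does not separate native MAML2 from the fusion. The defining markers EPCAM, CDH1, NAPSA and PAX8 were all at 0.369 RPKM or lower in every library, whereas the epithelial keratins KRT7, KRT8 and KRT18 were each at 29.1 RPKM or higher and KRT19 was at 0.361 or lower. The epithelial label therefore rests on 3 keratins in these libraries, and NAPSA and PAX8, the clear cell and Müllerian markers read here, were near 0.

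Collagen transcripts as a group were more abundant in shM2-3 cells. The RPKM of the 42 genes summed to 788 and 814 under shCtl, and to 2214 and 2208 under shM2-3. The mean sum went from 801 ± 18.0 to 2211 ± 4.32 (SD, n = 2 each), a ratio of 2.76. The groups did not overlap, and with 2 libraries against 2 the exact two-sided permutation test gave p = 0.333, the smallest this design allows. Collagen genes took 0.551% and 0.566% of all counts in shCtl and 1.49% and 1.48% in shM2-3. Exact 95% binomial intervals of these shares ran from 0.548% to 0.569% in shCtl and from 1.47% to 1.49% in shM2-3, and they cover counting error only. More cells that make collagen and more collagen RNA per cell cannot be told apart in bulk libraries.

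Of the 42 genes, 18 passed the RPKM limit and were tested. In shM2-3 13 of the 18 were called higher, against 9.24% of all genes tested, and 1 was called lower, against 8.93%. By the adjusted p alone, whatever the fold change, 16 of the 18 were higher, against 36.3% of all genes tested, and 2 were lower, against 36.4%. The median log2 fold change of the 18 was 1.58, beside -0.0037 over all genes tested. COL5A3, COL7A1 and COL16A1 passed the limit only through shM2-3 and so could only appear as higher. Among the 15 genes above the limit in both groups, 10 were called higher and 1 lower, with a median of 1.49.

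**Figure D1:**
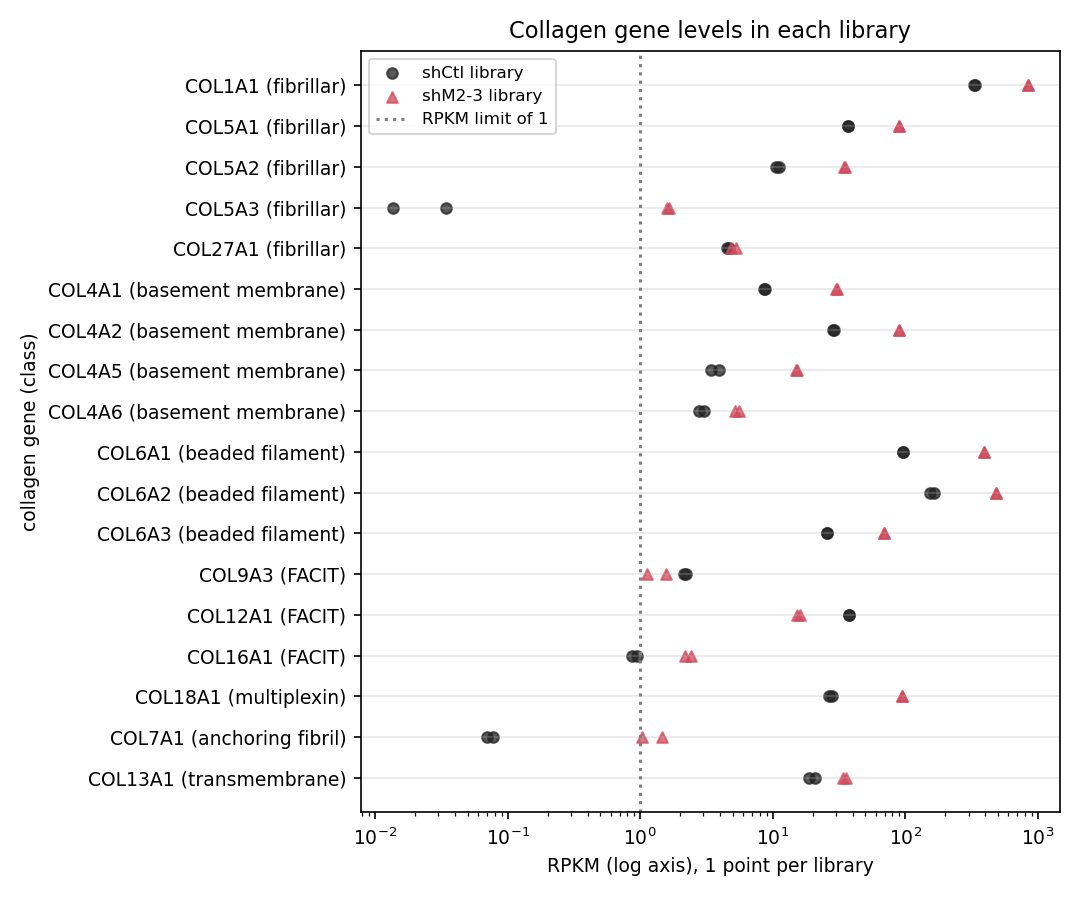
RPKM on a log axis of the 18 collagen genes tested, 1 point per library, with shCtl as circles, shM2-3 as triangles and the limit of 1 RPKM as a dotted line. Triangles lie to the right of circles in every row except COL9A3 and COL12A1, and COL5A3, COL7A1 and COL16A1 cross the limit.

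Fibrillar collagens held the most abundant member. COL1A1, the α1 chain of type I collagen (chr17:50184101-50201631, hg38), had 327 and 338 RPKM in shCtl and 843 and 843 in shM2-3. It was the 126th most abundant of all genes in shCtl and the 42nd in shM2-3. Its log2 fold change was 1.41 (SE 0.0305, adjusted p = 1.15e-13). COL1A2 encodes the α2 chain, the usual partner of α1 in type I collagen. It had 43 and 44 counts under shCtl and 60 and 22 under shM2-3, or 0.362, 0.364, 0.413 and 0.167 RPKM. COL1A2 was under the limit in every library and was not tested, and its shM2-3 libraries lay on either side of the shCtl libraries. The RPKM of COL1A1 was 904 and 927 times that of COL1A2 in shCtl and 2041 and 5038 times in shM2-3. COL3A1, the type III chain that accompanies type I in fibroblasts, had between 2 and 10 counts per library.

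Type V collagen, a minor fibril component that takes part in fibril nucleation, had its 3 chains higher. COL5A1 had 37.1 and 37.2 RPKM in shCtl and 89.2 and 89.2 in shM2-3, a log2 fold change of 1.33 (SE 0.0371, adjusted p = 1.41e-12). COL5A2 had 10.5 and 11.1 RPKM in shCtl and 34.7 and 35.0 in shM2-3, a log2 fold change of 1.76 (SE 0.0456, adjusted p = 6.57e-13). In both genes the libraries of a group lay close together and far from the other group. The RPKM ratio of COL5A1 to COL5A2 was 3.53 and 3.36 in shCtl and 2.57 and 2.55 in shM2-3 (exact two-sided permutation p = 0.333, the smallest possible). COL5A3, the third type V chain, had the highest fold change of all collagen genes. It had 5 and 2 counts under shCtl and 293 and 257 under shM2-3, or 0.0344 and 0.0135 RPKM against 1.65 and 1.60. Its log2 fold change was 6.11 (SE 0.325, adjusted p = 1.23e-09). The ratio of its summed counts, scaled by library, was 71.2, with a 95% counting interval from 34.3 to 178. Without shCtl replicate 1 the log2 fold change was 6.89, and without shCtl replicate 2 it was 5.59. Even in shM2-3 the level of COL5A3 was low, and COL5A1 stood 54.2 and 55.9 times above it.

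The 250 bases before the RefSeq start of COL5A3 are shown because this gene had the highest fold change, on the minus strand at chr19:10010505-10010754 of GRCh38.p14. Capitals here and in the sequences that follow mark 3 motifs searched on both strands, the core of the TEAD binding site (GGAATG), the GC box (GGGCGG) and the TATA box (TATAAA). TEAD proteins are the DNA-binding partners of YAP1 and of the fusion.
COL5A3: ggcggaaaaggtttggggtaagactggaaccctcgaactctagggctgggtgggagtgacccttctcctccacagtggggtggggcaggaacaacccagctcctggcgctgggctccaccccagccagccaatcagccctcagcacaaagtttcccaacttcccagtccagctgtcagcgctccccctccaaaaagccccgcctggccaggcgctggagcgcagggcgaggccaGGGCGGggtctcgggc
The stretch holds 1 GC box, 16 bases before the start. Over all 35116 RefSeq start windows of 300 bases, 45.0% hold a GC box, 4928 windows hold the TEAD core and 11.5% hold a TATA box. The 3 motifs share no letters in the stretches shown.

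Of the other fibrillar genes, COL27A1, which encodes a thin-fibril collagen of cartilage, had 4.71 and 4.52 RPKM in shCtl and 5.26 and 4.88 in shM2-3. The log2 fold change was 0.20 (SE 0.0704, adjusted p = 0.0201). The adjusted p of COL27A1 was above 0.05 in 7 of 10 alternative analyses, which include DESeq2 and limma, with a range from 0.0195 to 0.196. COL2A1, COL11A1, COL11A2 and COL24A1 had between 0 and 29 counts in any library and were not tested. COL11A2 had 7 and 1 counts under shCtl and 29 and 23 under shM2-3.

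Type IV collagen, the network of basement membranes, was higher in its 4 measurable chains. COL4A1 had 8.70 and 8.64 RPKM in shCtl and 30.5 and 30.2 in shM2-3, a log2 fold change of 1.87 (SE 0.0443, adjusted p = 2.46e-13). COL4A2 had 28.6 and 29.2 RPKM in shCtl and 89.9 and 89.4 in shM2-3, a log2 fold change of 1.70 (SE 0.0393, adjusted p = 2.07e-13). The α1 and α2 chains encoded by these genes form the type IV molecule found in nearly all basement membranes. COL4A2 stood 3.29 and 3.38 times above COL4A1 in shCtl and 2.95 and 2.96 times in shM2-3, so the excess of COL4A2 was smaller in both shM2-3 libraries (exact two-sided permutation p = 0.333, the smallest possible).

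COL4A1 and COL4A2 are read in opposite directions on chromosome 13 from starts with 126 bases between them. The bases between the starts are shown because both genes leave from them, on the plus strand at chr13:110307158-110307283 of GRCh38.p14.
COL4A1-COL4A2: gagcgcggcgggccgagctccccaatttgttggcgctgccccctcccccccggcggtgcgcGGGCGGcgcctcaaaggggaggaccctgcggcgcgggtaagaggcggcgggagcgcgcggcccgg
The stretch holds 1 GC box and neither the TEAD core nor the TATA box as spelled here.

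The pair COL4A5 and COL4A6, which lie head to head on chromosome X with 379 bases between them, moved less evenly. COL4A5 had 3.41 and 3.96 RPKM in shCtl and 15.2 and 15.1 in shM2-3, a log2 fold change of 2.10 (SE 0.0682, adjusted p = 6.66e-12). COL4A6 had 3.02 and 2.78 RPKM in shCtl and 5.17 and 5.57 in shM2-3, a log2 fold change of 0.95 (SE 0.0840, adjusted p = 2.24e-07). COL4A6 was thus just under the fold change limit, and it was 1.02 without shCtl replicate 1 and 1.01 without shM2-3 replicate 1. The ratio of COL4A5 to COL4A6 was 1.13 and 1.43 in shCtl and 2.94 and 2.71 in shM2-3 (exact two-sided permutation p = 0.333, the smallest possible). The third head-to-head pair, COL4A3 and COL4A4, encodes the chains of kidney and lung basement membranes. It had between 1 and 19 counts per library and was not tested.

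Type VI collagen had its 3 classical chains higher and became nearly as abundant as the fibrillar class. COL6A1 had 96.0 and 95.9 RPKM in shCtl and 393 and 390 in shM2-3, a log2 fold change of 2.09 (SE 0.0351, adjusted p = 1.21e-14). COL6A2 had 155 and 165 RPKM in shCtl and 483 and 485 in shM2-3, a log2 fold change of 1.66 (SE 0.0377, adjusted p = 1.75e-13). COL6A3 had 25.9 and 25.8 RPKM in shCtl and 69.4 and 69.3 in shM2-3, a log2 fold change of 1.49 (SE 0.0375, adjusted p = 4.81e-13). In each gene the lowest shM2-3 library was far above the highest shCtl library. The α1, α2 and α3 chains encoded by these genes join in 1 molecule, yet their transcripts differed in level and in change. COL6A1 stood at 0.620 and 0.580 of COL6A2 in shCtl and at 0.813 and 0.804 in shM2-3. COL6A1 was 3.71 and 3.71 times COL6A3 in shCtl and 5.66 and 5.62 times in shM2-3. Each of these ratios separated the groups, at the smallest exact permutation p possible (two-sided p = 0.333). COL6A1 and COL6A2 are 93.1 kb apart on chromosome 21, with 3 annotated genes between them, and COL6A3 is on chromosome 2. COL6A5 and COL6A6, which encode alternatives to the α3 chain, had 3 counts or fewer in every library.

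FACIT collagens were the class with members in both directions. COL12A1 (chr6:75084326-75206053, hg38), whose long chain coats type I fibrils, was the 1 collagen gene called lower. It had 10411 and 10559 counts under shCtl and 5398 and 4600 under shM2-3, or 37.9 and 37.8 RPKM against 16.1 and 15.1. Its log2 fold change was -1.21 (SE 0.0417, adjusted p = 1.27e-11). COL12A1 was the 4th most abundant collagen transcript in shCtl and the 11th in shM2-3, on the RPKM scale. COL9A3, a chain of the cartilage collagen type IX, had 130 and 127 counts under shCtl and 80 and 102 under shM2-3, or 2.22 and 2.13 RPKM against 1.12 and 1.57. Its log2 fold change was -0.63 (SE 0.225, adjusted p = 0.0219). The adjusted p of COL9A3 was 0.0576 with DESeq2, and from 0.00349 to 0.0293 in the other alternative analyses that kept all libraries. When a library was left out, its log2 fold change ran from -0.39 (without shM2-3 replicate 1) to -0.90 (without shM2-3 replicate 2).

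COL16A1, which encodes a FACIT collagen of fibrils and microfibrils, went the other way. It had 0.859 and 0.938 RPKM in shCtl and 2.40 and 2.16 in shM2-3, a log2 fold change of 1.41 (SE 0.148, adjusted p = 1.36e-06). On the log2(RPKM + 1) scale the change of COL16A1 was 0.79 and under the limit. The other FACIT genes measured were COL9A1, COL9A2, COL14A1, COL19A1, COL21A1 and COL22A1, with between 0 and 62 counts in any library. Of these, COL9A2 had 21 and 17 counts under shCtl and 62 and 61 under shM2-3. As a class, FACIT transcripts summed to 41.4 and 41.3 RPKM in shCtl and to 20.6 and 19.96 in shM2-3. COL12A1 alone held 37.9 and 37.8 RPKM of the shCtl sums and 16.1 and 15.1 of the shM2-3 sums. The lower class sum thus reflects this 1 gene and not the class at large.

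The 250 bases before the RefSeq start of COL12A1 are shown because it was the collagen gene called lower, on the minus strand at chr6:75206054-75206303 of GRCh38.p14.
COL12A1: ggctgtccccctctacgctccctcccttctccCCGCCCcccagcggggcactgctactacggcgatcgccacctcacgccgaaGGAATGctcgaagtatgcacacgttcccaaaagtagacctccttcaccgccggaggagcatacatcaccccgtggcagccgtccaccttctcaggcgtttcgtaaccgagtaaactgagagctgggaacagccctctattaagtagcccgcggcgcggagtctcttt
The stretch holds 1 TEAD core, 167 bases before the start, and 1 GC box on the other strand, 218 bases before it. RefSeq start windows were found for 14 of the 18 genes tested, in 17 windows of 300 bases. The TEAD core occurred in 1 of the 17, that of COL12A1, a smaller share than the 4928 of all 35116 windows. The GC box occurred in 13 of the 17, beside 45.0% of all windows, and the TATA box in 4, beside 11.5%. Whether these shares differ beyond chance was not tested. A match of 6 letters is a description of the sequence and shows neither binding nor a cause.

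**Figure D2:**
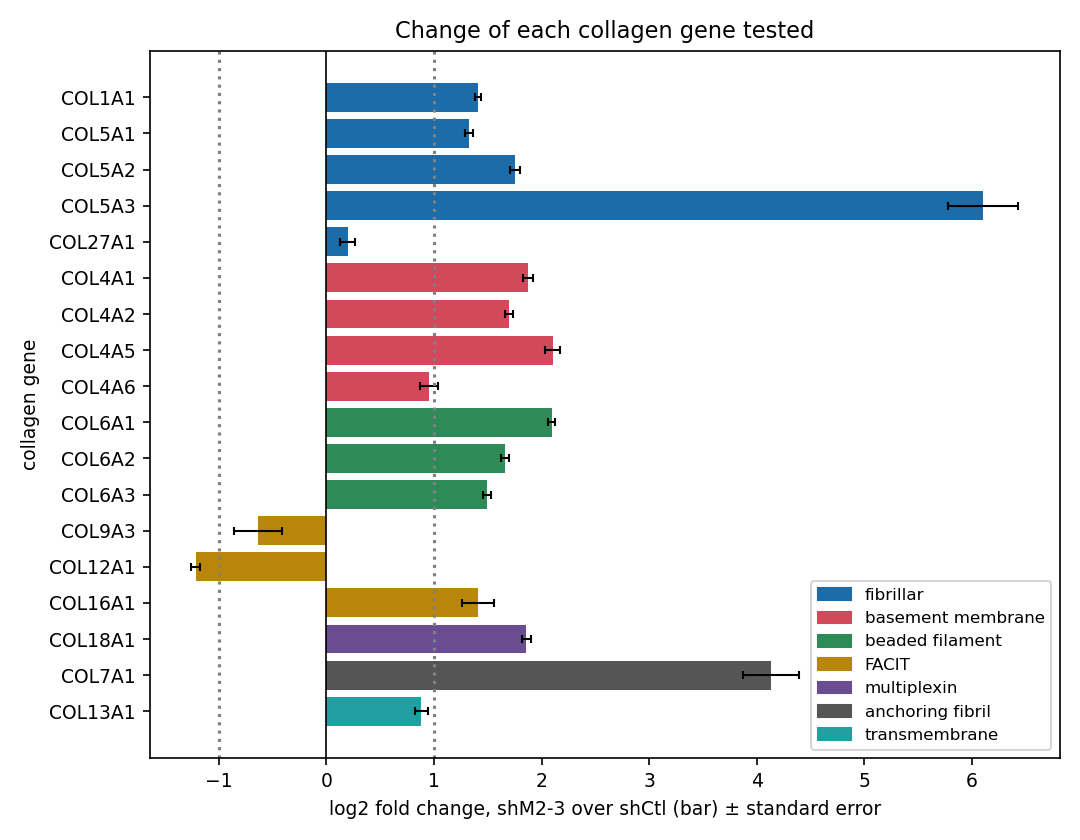
Log2 fold change of shM2-3 over shCtl for the 18 collagen genes tested, as bars with standard errors and coloured by class, with dotted lines at the fold change limit of 2 in each direction. The bars of 13 genes pass the limit to the right, from 1.33 for COL5A1 to 6.11 for COL5A3, and that of COL12A1 alone passes it to the left.

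The remaining classes also held called genes. COL18A1, a multiplexin collagen of basement membranes whose C-terminal fragment is endostatin, had 26.6 and 28.0 RPKM in shCtl and 94.6 and 94.3 in shM2-3. Its log2 fold change was 1.86 (SE 0.0411, adjusted p = 1.40e-13). It was the 7th most abundant collagen transcript in shCtl and the 4th in shM2-3. COL15A1, the other multiplexin, had between 1 and 11 counts per library and was not tested.

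COL7A1, the chain of the anchoring fibrils that tie basement membranes to the matrix below, had 15 and 17 counts under shCtl and 382 and 245 under shM2-3. Its RPKM was 0.0698 and 0.0778 in shCtl and 1.45 and 1.03 in shM2-3. COL7A1 was low in every library, and its shM2-3 replicates differed from each other more than those of most called members. The log2 fold change was 4.13 (SE 0.262, adjusted p = 7.72e-09), and the scaled ratio of its summed counts was 17.8, with a 95% counting interval from 12.4 to 26.2. The 250 bases before its RefSeq start, on the minus strand at chr3:48595330-48595579 of GRCh38.p14, are shown because COL7A1 had the second highest fold change.
COL7A1: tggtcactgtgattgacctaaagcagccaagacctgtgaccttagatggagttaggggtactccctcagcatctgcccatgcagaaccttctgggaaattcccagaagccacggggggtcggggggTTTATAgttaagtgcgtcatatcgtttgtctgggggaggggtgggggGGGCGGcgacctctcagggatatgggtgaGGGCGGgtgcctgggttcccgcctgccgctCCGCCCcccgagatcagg
The stretch holds 3 GC boxes, 77 and 48 bases before the start and, on the other strand, 18 bases before it. The TATA box letters are also on the other strand, 124 bases before the start.

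COL13A1, a transmembrane collagen of cell-matrix contacts, had 18.6 and 21.0 RPKM in shCtl and 36.0 and 33.8 in shM2-3. The log2 fold change was 0.88 (SE 0.0576, adjusted p = 1.02e-08), which passed the adjusted p and not the fold change limit. COL17A1, the transmembrane collagen of hemidesmosomes, had 85 and 85 counts under shCtl and 105 and 78 under shM2-3, and the groups overlapped. COL25A1 had between 13 and 32 counts per library. The chains COL8A1, COL8A2 and COL10A1, which form hexagonal networks, had between 1 and 69 counts in any library. Among them COL8A1 had 20 and 13 counts under shCtl and 69 and 67 under shM2-3, while COL8A2 had 7 and 10 under shCtl and 5 and 3 under shM2-3. COL26A1 and COL28A1, which fit none of the classes above, had 4 counts or fewer in every library.

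Of the 24 genes that were not tested, 13 had 10 counts or fewer in every library. The highest RPKM among the 24 was 0.825, that of COL9A2 in shM2-3 replicate 2. The measured collagen transcripts of ES-2 cells in both groups were therefore those of types I (α1), IV, V, VI, XII, XIII and XVIII. Types IX (α3) and XXVII were present in smaller amounts in both groups, and types VII and XVI passed the limit only in shM2-3.

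The make-up of the collagen transcripts shifted along with their sum. Fibrillar genes made up 48.2% and 48.0% of the summed RPKM in shCtl and 44.0% and 44.1% in shM2-3. Type VI made up 35.1% and 35.3% in shCtl and 42.7% and 42.7% in shM2-3. FACIT genes, whose sum was mostly COL12A1, made up 5.25% and 5.07% in shCtl and 0.931% and 0.904% in shM2-3. The share of the basement membrane class was 5.56% and 5.48% in shCtl and 6.36% and 6.35% in shM2-3. In each of these 4 classes the libraries of the groups did not overlap, and the multiplexin and transmembrane shares also separated the groups. Class shares were not tested, and with 2 libraries against 2 an exact two-sided permutation p cannot be below 0.333. All are parts of the same total, so they do not move independently. COL1A1 alone was 41.5% of the sum in both shCtl libraries and 38.1% and 38.2% in the shM2-3 libraries. On the RPKM scale COL1A1, COL6A2 and COL6A1 were the first 3 in both groups, in this order. In shM2-3 COL4A2 (89.6 ± 0.377, SD, n = 2) and COL5A1 (89.2 ± 0.0186) differed by about their spread, and COL13A1 (34.9 ± 1.52) and COL5A2 (34.9 ± 0.224) by less than theirs.

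**Figure D3:**
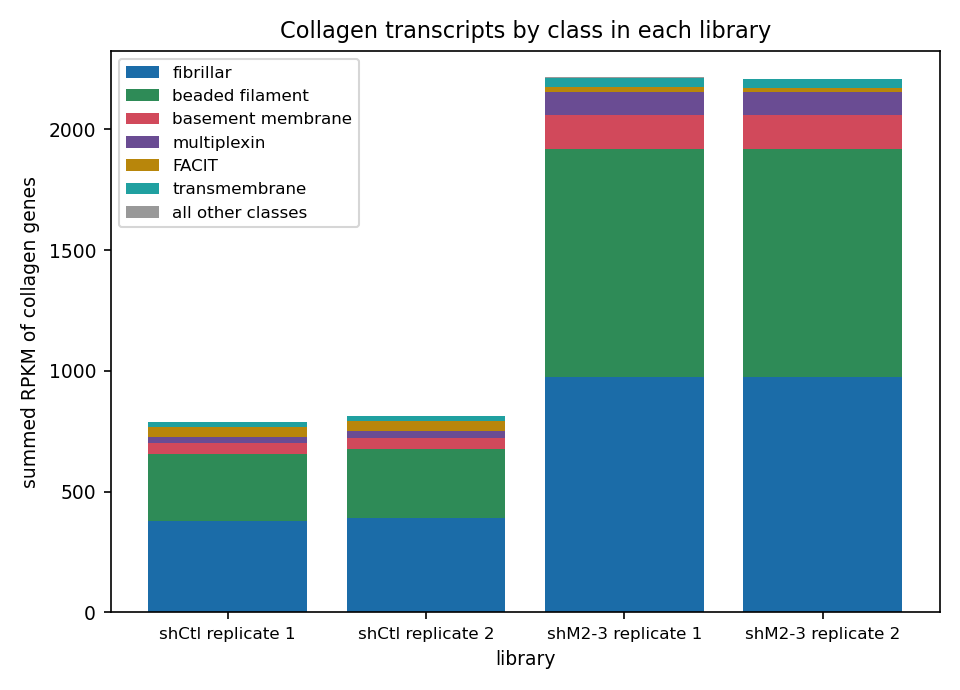
Summed RPKM of collagen genes in each of the 4 libraries, stacked by class, on an axis that starts at 0. The sums are 788 and 814 in shCtl and 2214 and 2208 in shM2-3, and the beaded filament class (type VI) grows from 277 and 287 to 945 and 944.

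Genes of other cell types were read beside these results. Of 7 fibroblast markers that are not collagens, 4 had an RPKM above 1, and the other 3 (DCN, LUM and POSTN) stayed at 0.0913 or below in every library. The list summed to between 45.5 and 47.2 RPKM in shCtl and to 57.6 in both shM2-3 libraries. PDGFRA, PDGFRB and FAP were called higher, with log2 fold changes of 1.79, 1.23 and 1.07, while THY1 fell by 0.56. PDGFRB passed the RPKM limit only through shM2-3. In the smooth muscle and pericyte list no gene of 4 exceeded 1 RPKM, and DES was at 0 in 3 of 4 libraries. Of 4 endothelial genes 2 did, with VWF and KDR at 0.295 or less, and the list summed to between 9.40 and 10.6 RPKM in shCtl and 5.09 and 5.65 in shM2-3. CDH5 was called lower (log2 fold change -1.17). PECAM1, which passed the limit only through shM2-3, was called higher (log2 fold change 5.07), from 6 and 5 counts to 256 and 163. Of 4 leukocyte genes in the table, CD68 exceeded 1 RPKM, PTPRC was at 0.0173 or less, and the sum was between 57.02 and 57.4 in shCtl and 38.8 and 39.9 in shM2-3. CD14, under the limit and not tested, had 3 and 4 counts in the shCtl libraries and 42 and 37 in those of shM2-3. The keratin and adhesion genes of the epithelial list summed to 637 RPKM in both shCtl libraries and to between 312 and 316 in shM2-3. KRT7 and KRT8 were called lower, with log2 fold changes of -1.26 and -1.22. KRT18 (log2 fold change -0.68) was lower by the adjusted p alone. The part of these changes in the collagen result was not tested.

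Libraries without strand can also count reads of genes that overlap a collagen gene. The antisense genes COL4A2-AS1, COL4A2-AS2, COL5A1-AS1 and COL18A1-AS1 had at most 11 counts in any library, against at least 4207 for COL4A2, COL5A1 and COL18A1. COL5A1 also overlaps LOC101448202, with 264 and 312 counts under shCtl and 153 and 124 under shM2-3, and COL18A1 overlaps SLC19A1, with 453 to 804 counts. COL9A3 overlaps TCFL5, which had between 1057 and 1141 counts per library, several times the count of COL9A3. Overlap was read from whole gene spans. How many TCFL5 reads, if any, were counted for COL9A3 was not tested, and the COL9A3 value is uncertain in that respect.

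Collagen chains need a dedicated set of enzymes and chaperones in the endoplasmic reticulum and outside the cell. The list used here named genes for proline and lysine hydroxylation, chaperoning and export, propeptide removal, crosslinking, binding and breakdown. Of its 52 genes in the table, 44 were tested. In shM2-3 14 of the 44 were called higher and 5 lower, beside 9.24% and 8.93% of all genes tested, so the share called lower was near that of all genes. By the adjusted p alone another 14 were higher and 6 lower. Over all genes tested, 36.3% were higher and 36.4% lower by the adjusted p alone, called genes included. ITGA11, COLGALT2 and ADAMTS3 passed the RPKM limit only through shM2-3 and could only appear as higher. Of the 41 genes above the limit in at least 1 library of each group, 11 were called higher and 5 lower. CTSK was among the 11, with 0.786 and 1.19 RPKM in shCtl, a mean under the limit. The median log2 fold change over the 44 was 0.22.

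**Figure D4:**
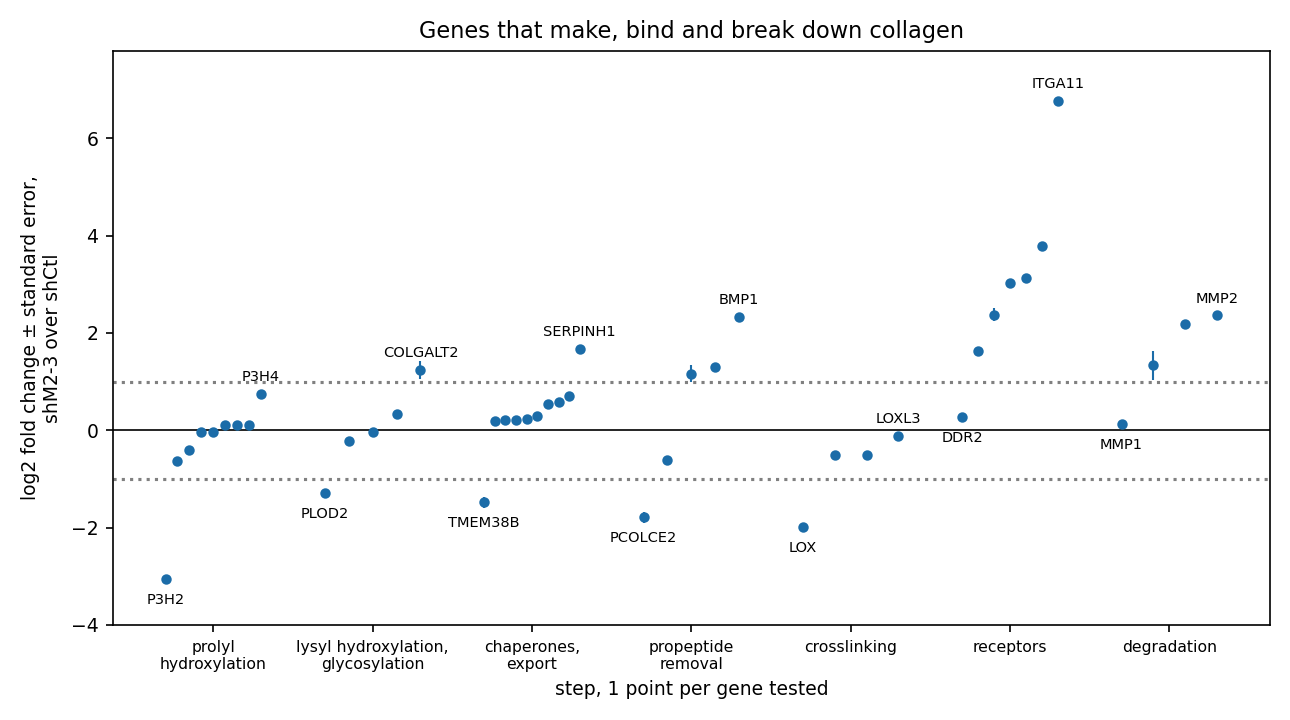
Log2 fold change of shM2-3 over shCtl with standard errors for the 44 tested genes that make, bind or break down collagen, 1 point per gene, in 7 groups, with the lowest and highest gene of each group named. The 7 receptor genes lie at or above 0.27, up to 6.77 for ITGA11, and the 4 crosslinking genes lie at or below -0.11, down to -1.99 for LOX.

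Inside the cell, most hydroxylation genes changed little. Prolyl hydroxylation was represented by 9 tested genes, of which 1 was called lower and none higher, 3 were higher and 2 lower by the adjusted p alone, and 3 did not pass. The 1 called gene was P3H2, a prolyl 3-hydroxylase that acts on type IV collagen. P3H2 had 19.6 and 20.9 RPKM in shCtl and 2.38 and 2.27 in shM2-3, a log2 fold change of -3.06 (SE 0.0783, adjusted p = 5.63e-13). Among 5 genes of lysyl hydroxylation and glycosylation, PLOD2, the hydroxylase of the telopeptides, had 212 and 212 RPKM in shCtl and 84.2 and 81.6 in shM2-3, a log2 fold change of -1.29 (adjusted p = 1.92e-12). In the same group COLGALT2, a collagen galactosyltransferase, was higher by 1.24 on the log2 scale (adjusted p = 5.54e-05) at a low level, from 0.573 and 0.513 to 1.28 and 1.18 RPKM.

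Of 10 genes for chaperones and export, 1 was called higher, 1 was called lower and 8 were higher by the adjusted p alone. SERPINH1, the collagen chaperone HSP47, had 124 and 130 RPKM in shCtl and 384 and 391 in shM2-3, a log2 fold change of 1.67 (SE 0.0395, adjusted p = 2.45e-13). That is close to the median of the collagen chains. TMEM38B, a cation channel of the endoplasmic reticulum, had 6.82 and 8.20 RPKM in shCtl and 2.69 and 2.46 in shM2-3, a log2 fold change of -1.48 (adjusted p = 6.07e-08).

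Outside the cell, the steps differed from each other. Among 5 tested genes of propeptide removal, 3 were called higher and 1 lower. BMP1, the procollagen C-proteinase, had 5.37 and 6.46 RPKM in shCtl and 28.1 and 29.0 in shM2-3, a log2 fold change of 2.34 (SE 0.0725, adjusted p = 4.25e-12). PCOLCE2, an enhancer of that proteinase, went from 13.5 and 14.1 RPKM to 3.74 and 3.87, a log2 fold change of -1.79 (adjusted p = 3.30e-09). PCOLCE, the other enhancer in the list, was called higher and stood far above PCOLCE2. It had 189 and 193 RPKM in shCtl and 441 and 460 in shM2-3 (log2 fold change 1.30, adjusted p = 4.38e-12). Of 4 tested crosslinking genes, 1 was called lower, 2 were lower by the adjusted p alone and 1 did not pass. LOX, lysyl oxidase, had 361 and 375 RPKM in shCtl and 87.8 and 88.9 in shM2-3, a log2 fold change of -1.99 (SE 0.0361, adjusted p = 2.14e-14).

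All 7 tested collagen receptor genes passed the adjusted p and were higher, and 6 were called. ITGA11, the integrin α11 chain that binds fibrillar collagen, had 75 and 84 counts under shCtl and 10214 and 9035 under shM2-3, a log2 fold change of 6.77 (adjusted p = 8.08e-17). The lowest of the 6 was MRC2, an endocytic receptor for collagen, with 17.6 and 18.5 RPKM in shCtl and 53.9 and 53.5 in shM2-3 (log2 fold change 1.64, adjusted p = 7.78e-13). Of 4 tested genes of collagen breakdown, 3 were called higher. The gene not called was MMP1, the most abundant of the 4. It had 844 and 846 RPKM in shCtl and 881 and 886 in shM2-3 (log2 fold change 0.13, adjusted p = 0.00238). MMP2, a gelatinase, had 43.3 and 44.4 RPKM in shCtl and 215 and 216 in shM2-3 (log2 fold change 2.36, adjusted p = 1.14e-14). CTSK, the collagenolytic cathepsin K, had 30 and 46 counts under shCtl and 114 and 98 under shM2-3 (log2 fold change 1.34, adjusted p = 0.00104).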

How the data were processed

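RNA-seq libraries of ES-2 cells (shCtl and shM2-3, 2 per group) were grouped by their titles. Per the labels and the study's methods, the authors aligned paired reads of 150 bases to hg38 with HISAT2 2.0.4, removed ambiguous reads and reads of mapping quality under 10, and quantified RefSeq transcripts in Partek 7.18. Their deposited estimated counts carry no normalization, and 42.4% to 48.6% of the values of a library are exactly whole, zeros included. RPKM was also deposited, computed by the authors from transcript length and depth.

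Estimated counts were rounded and tested over all genes in R 4.3.3 with edgeR 4.0.16 (TMM, glmQLFit, glmQLFTest). SE is the log2 fold change divided by the square root of F. Intervals cover counting error only. Alternatives were a replicate block, limma 3.58.1 with pseudocounts of 0.1 and 1 on log2 RPKM, total counts, DESeq2 1.42.0, no filter, a fold limit of 1.5, and leaving out single libraries. Replicates differed by 3.48 (shCtl) and 4.07 (shM2-3) times sampling noise, as chi-square per degree of freedom over genes with at least 20 counts.

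Members and gene lists were chosen with earlier results of these data known. Text values were given for each called collagen gene and its partner chains, and for the lowest and highest called gene of each handling group. DES, VWF, KDR and other marker genes were named from the marker lists. Values of COL3A1, COL8A1, COL8A2, COL9A2, COL9A3, COL11A2, COL13A1, COL17A1, COL27A1, PCOLCE, MMP1 and the overlapping genes were named after they had been seen. GP6 and LAIR1 were not analysed here. One marker gene is not reported here, and neither is the sum of its list. Gene positions, start windows and sequences come from RefSeq on GRCh38.p14, the same build as hg38.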

Additional observations from a re-analysis of the deposited data

How the results depend on the processing

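With 10 alternatives for each of the 18 collagen genes, 177 of 180 log2 fold changes kept both their direction and their side of the call, and none changed sign. The exceptions were COL4A6 and COL16A1, given above. The number called higher ranged from 12 to 17 across alternatives, and that called lower was 1 in every alternative except at a fold change limit of 1.5, where it was 2. The median log2 fold change of tested collagen genes was 1.54 with total counts, 1.34 with no filter on low values, 1.51 with limma on log2(RPKM + 0.1) and 1.35 with limma on log2(RPKM + 1). The value with no filter rests on more genes, and the cause of the other differences was not tested. Handling genes called higher ranged from 11 to 16 and those called lower from 5 to 7. The ratio of summed collagen RPKM was 2.89 after rescaling with the TMM factors and 2.92 without COL1A1, and from 2.72 to 2.80 when a library was left out. A replicate block changed no call of a collagen gene, with 13 called higher and a median of 1.58. The replicate numbers are not stated to pair cultures, and the deviations of same-numbered libraries correlated at -0.0287 across genes. COL5A3, COL7A1 and the genes not tested are limited by depth, and with 2 libraries per group no exact test of a single value can pass 0.05.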

Other observations

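A list of 28 genes outside the symbol rule whose proteins carry a collagen-like stretch was written after the collagen values had been seen and before their own. Of the 20 in the table, 7 were tested, of which 3 were called higher, 1 was called lower, 1 was higher and 1 lower by the adjusted p alone, and 1 did not pass, beside 9.24% called higher and 8.93% called lower among all genes tested (edgeR quasi-likelihood, Benjamini-Hochberg adjusted over all genes). CTHRC1, a secreted protein with a short collagen-like repeat, went from 11.2 ± 1.24 to 57.8 ± 2.85 RPKM (SD, n = 2 each), a log2 fold change of 2.44 (adjusted p = 6.38e-12). C1QTNF6 and C1QTNF1, secreted relatives of complement C1q, had log2 fold changes of 1.99 and 2.01, the latter from 0.259 to 1.005 RPKM. MSR1, a macrophage scavenger receptor, had a log2 fold change of -1.23 from 1.03 to 0.422 RPKM. C1QTNF1 passed the RPKM limit only through shM2-3 and could only appear as higher, and MSR1 passed it only through shCtl and could only appear as lower. COLEC12, a membrane collectin, stood at 72.8 RPKM in shCtl and 66.4 in shM2-3 and did not pass the test (adjusted p = 0.126).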
